A study of Mus musculus with 8 samples.

Results

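The genes described here are the replication-dependent histone genes of the mouse, the core histone genes of the H2A, H2B, H3 and H4 classes that lie mostly in clusters, together with the linker histone genes *H1f1* to *H1f5*. They were chosen by symbol alone among protein-coding genes, which gave 67 genes of the 56691 in the table: 5 of class H1, 18 of H2A, 19 of H2B, 12 of H3 and 13 of H4. Their RNA was measured by bulk sequencing of the cerebellum in 4 *Atm*-WT mice (genotype ATM +/+, libraries 2M, 7M, 13M and 32M) and 4 *Atm*-KO mice (genotype ATM -/-, libraries 1M, 7F, 11M and 12M), all 6 months old and with 1 library per mouse. The *Atm*-KO mice were of the B6;129S4-Atmtm1Bal/J line, which carries the disrupted *Atm* allele in every cell, and the *Atm*-WT mice were littermates from crosses of heterozygous parents. *Atm* encodes the kinase that signals DNA double-strand breaks and is lost in ataxia-telangiectasia. Library 7F carries the letter F in its label and the others the letter M, so sex could not be separated from that 1 library.

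Replication-dependent histone genes supply the proteins that package newly made DNA, and their transcription and RNA stability are known to peak in S phase. Most of their messenger RNAs end in a conserved stem-loop, bound by SLBP, in place of a poly(A) tail, and NPAT is the coactivator that drives their transcription. The adult cerebellum consists mostly of granule cells that no longer divide, where replication-independent variants such as H3.3 take over much of the supply.

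The stem-loops of the genes on which the results turn are given first, because the class whose level differed most, H4, also carries its own form of it. Each line gives the reference sequence of GRCm39 on the coding strand, 5′ to 3′, with the 16 bases of stem and loop in capitals.
H4c14 (chr3:96170250-96170275, minus strand): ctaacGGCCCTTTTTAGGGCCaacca
H4c8 (chr13:23715623-23715648, plus strand): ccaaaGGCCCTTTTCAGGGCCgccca
H4c4 (chr13:23765928-23765953, plus strand): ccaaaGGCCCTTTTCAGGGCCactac
H4c3 (chr13:23882067-23882092, minus strand): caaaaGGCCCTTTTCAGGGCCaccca
H4c12 (chr13:21934315-21934340, minus strand): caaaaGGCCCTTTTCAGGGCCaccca
H4c1 (chr13:23944778-23944803, minus strand): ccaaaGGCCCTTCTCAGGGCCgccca
H1f2 (chr13:23923490-23923515, plus strand): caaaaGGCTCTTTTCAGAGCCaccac
H2ac25 (chr11:58845993-58846018, plus strand): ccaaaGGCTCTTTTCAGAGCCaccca
A stem-loop of this shape lay within 200 bases after the stop codon of the canonical transcript in 62 of the 67 genes. The form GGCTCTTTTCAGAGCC was found in 39 genes, none of them H4. The form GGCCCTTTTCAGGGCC was found in 8 genes, all of them H4. The gene model reached the stem-loop in 45 of the 67 genes, and the models of 12, *H4c12* among them, held the coding sequence alone.

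All 13 H4 genes encode 1 identical protein of 103 amino acids with the initiator methionine, although their coding sequences are as little as 85.3% identical to each other. By the canonical transcript of each gene, the 12 H3 genes encode 2 proteins, the 18 H2A genes 9, the 19 H2B genes 13 and the 5 H1 genes 5. The canonical coding sequences of *H2bc22*, *H2bc23* and *H2bc24* are 417, 405 and 405 bases long, against 381 in most other H2B genes. The H2B number therefore depends on the transcript taken, and no stem-loop was found behind the stop codons of these genes. Chromosome 13 held 23 of the genes in a first stretch (chr13:21899933-22227846) and 30 in a second (chr13:23715220-24118834). A further 10 lay on chromosome 3 (chr3:96127181-96177448) and 3 on chromosome 11 (chr11:58838848-58847656). *H4c16* lay alone on chromosome 6 (chr6:136778551-136781413).

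Promoter sequences, taken from RefSeq on GRCm38.p6 as 250 bases before to 50 bases after each start, were matched by symbol for 57 of the genes. The 6 letters GGTCCG, searched on both strands, occurred in 10 of 11 H4 promoters (90.9%, all but *H4c1*), in 1 of 14 H2B and 1 of 10 H3 promoters, in 0 of the 17 H2A and 5 H1 promoters, and in 8.25% of all 32851 promoters. The letters CCAAT occurred in every promoter of the H1, H2A, H2B and H3 classes, in 3 of 11 H4 promoters (27.3%) and in 37.4% of all promoters. TATAAA was present in every class, in 4 of 5 H1, 11 of 17 H2A, 7 of 14 H2B, 4 of 10 H3 and 8 of 11 H4 promoters, and in 13.6% of all. The octamer ATTTGCAT was present in 6 of 17 H2A and 6 of 14 H2B promoters, in none of the other classes, and in 1.74% of all. All 10 H4 promoters with GGTCCG carried it in the gene's own direction. It began between 18 and 47 bases before the start in 8 of them, 5 bases before it in *H4c8* and 6 bases after it in *H4c2*. Of the 8, 5 are given here with GGTCCG and TATAAA in capitals, to set genes that were lower in *Atm*-KO mice at an unadjusted p (*H4c3*, *H4c4* and *H4c12*) beside a neighbouring pair that did not pass (*H4c17* and *H4c18*).
H4c3 (chr13:23698465-23698524, GRCm38.p6, minus strand): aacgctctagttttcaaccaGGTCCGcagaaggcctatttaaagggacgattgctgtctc
H4c4 (chr13:23581501-23581560, GRCm38.p6, plus strand): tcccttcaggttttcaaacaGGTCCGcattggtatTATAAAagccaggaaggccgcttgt
H4c12 (chr13:21750554-21750605, GRCm38.p6, minus strand): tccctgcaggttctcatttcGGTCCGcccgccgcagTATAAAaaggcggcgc
H4c17 (chr13:21811679-21811738, GRCm38.p6, plus strand): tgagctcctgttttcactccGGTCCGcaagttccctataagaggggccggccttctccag
H4c18 (chr13:21832204-21832263, GRCm38.p6, minus strand): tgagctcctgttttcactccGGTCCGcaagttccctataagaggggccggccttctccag
The stretches of *H4c17* and *H4c18* are the same letters. A match of letters is a description of the sequence and was not tested as a binding site.

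Values below are CPM (counts scaled to a common library size with TMM factors), and a mean is given with its SD over 4 mice. Total counts ranged from 65967130 to 88030300 per library, and 3 counts, the limit that a count of 0 allows, corresponded to between 0.0350 and 0.0444 CPM. *Gabra6*, a granule cell gene, was between 535 and 707 CPM in every library, the range of an abundant transcript. *Atm* itself was lower in every *Atm*-KO library, at 45.4 ± 4.16 CPM against 71.5 ± 10.1 CPM. Whether the libraries were made from poly(A)-selected RNA is not given in the sources used here, and neither is the treatment of reads that match several places.

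Histone RNA was present in all libraries, at between 0.0349% and 0.0496% of the counts. Of the 67 genes, 64 had counts in some library, while *H2ac1*, *H2ac18* and *H3c14* had none in any. A mean of at least 1 CPM was reached by 39 genes. The other 28 together summed to 9.14 ± 1.85 CPM in *Atm*-WT mice. Per kilobase of exon, the level was highest for *H4c8* (72.9 CPM per kb), followed by *H4c12* (45.5), *H4c14* (33.6), *H4c4* (30.6) and *H2bc27* (24.3). The highest level in the other classes was 16.8 CPM per kb for *H3c11*, 15.5 for *H1f2* and 13.02 for *H2ac20*. H4 genes held 53.5% of all member CPM in *Atm*-WT mice.

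The summed CPM of all 67 genes was lower in *Atm*-KO mice. It was 456, 444, 380 and 489 CPM in *Atm*-WT libraries 2M, 7M, 13M and 32M, and 336, 417, 354 and 346 CPM in *Atm*-KO libraries 1M, 7F, 11M and 12M. The means were 442 ± 45.8 and 363 ± 36.6 CPM, so that the *Atm*-KO mean was 82.1% of the *Atm*-WT mean. The genotypes overlapped, since 7F was above 13M.

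H4 accounted for 71.7% of that difference. Summed over its 13 genes, H4 was at 244, 244, 203 and 254 CPM in *Atm*-WT libraries 2M, 7M, 13M and 32M and at 169, 212, 173 and 166 CPM in *Atm*-KO libraries 1M, 7F, 11M and 12M. The means were 236 ± 23.0 and 180 ± 21.4 CPM, or 76.1% of *Atm*-WT. Only 7F and 13M overlapped. As a share of all member CPM, H4 took between 52.0% and 55.0% in *Atm*-WT and between 48.0% and 50.7% in *Atm*-KO libraries, without overlap. The other classes were nearer to their *Atm*-WT level, at 85.6% for H1, 97.9% for H2A, 88.7% for H2B and 89.2% for H3. Their sums overlapped between genotypes. The H2A percentage depends on *H2ac25*, whose mean rose from 9.34 to 11.3 CPM with loss of *Atm* and whose model overlaps *Trim17*. Without that gene the H2A percentage would be lower.

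**Figure D1:**
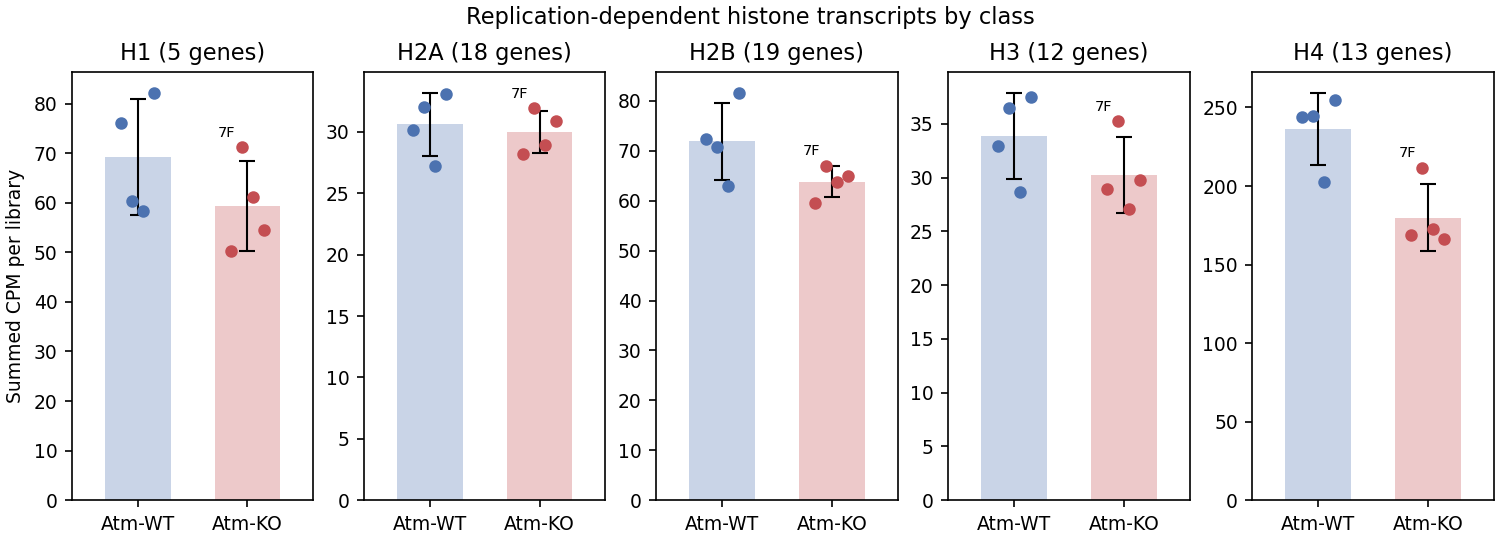
Summed CPM of each histone class (vertical axis, from 0) in *Atm*-WT and *Atm*-KO libraries, with a point per library, a bar at the mean and SD as error bar, and library 7F marked. The mean of H4 was 236 CPM for the wild type and 180 CPM for the knockout, whereas H2A was at 30.6 and 30.0 CPM. The H2A sum includes *H2ac25*, at 9.34 CPM for the wild type and 11.3 CPM for the knockout.

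Of the 67 genes, 57 passed edgeR's filter on low counts and were tested, and the other 10 were not. Among those tested, 51 had a lower and 6 a higher level in *Atm*-KO mice, with a median log2 fold change of −0.27 beside −0.02 over all 22423 genes tested. At an unadjusted p under 0.05 by edgeR's quasi-likelihood test, 11 (19.3%) were lower, against a background of 8.48% of all genes tested, and 1 was higher, against a background of 11.7%. At an adjusted p under 0.05 none of the 57 was called by edgeR, where the background was 0.0178% (4 genes), and the smallest adjusted p among them was 0.0942. DESeq2 called 5 of them at an adjusted p under 0.05, all lower and all H4 (*H4c12*, *H4c3*, *H4c1*, *H4c14* and *H4c4*), against a background of 2.47%; at an unadjusted p it called 16 lower (28.1%), against a background of 8.79%. With limma voom none was called at an adjusted p and 13 were lower at an unadjusted p (22.8%, against 8.21% of all genes). The methods of the study name DESeq2 and a figure legend names limma. All 4 *Atm*-KO libraries were below all 4 *Atm*-WT libraries for 3 genes (5.26%), against a background of 5.12%, so this count was at the background. No gene was above in all, where the background was 6.47%.

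**Figure D2:**
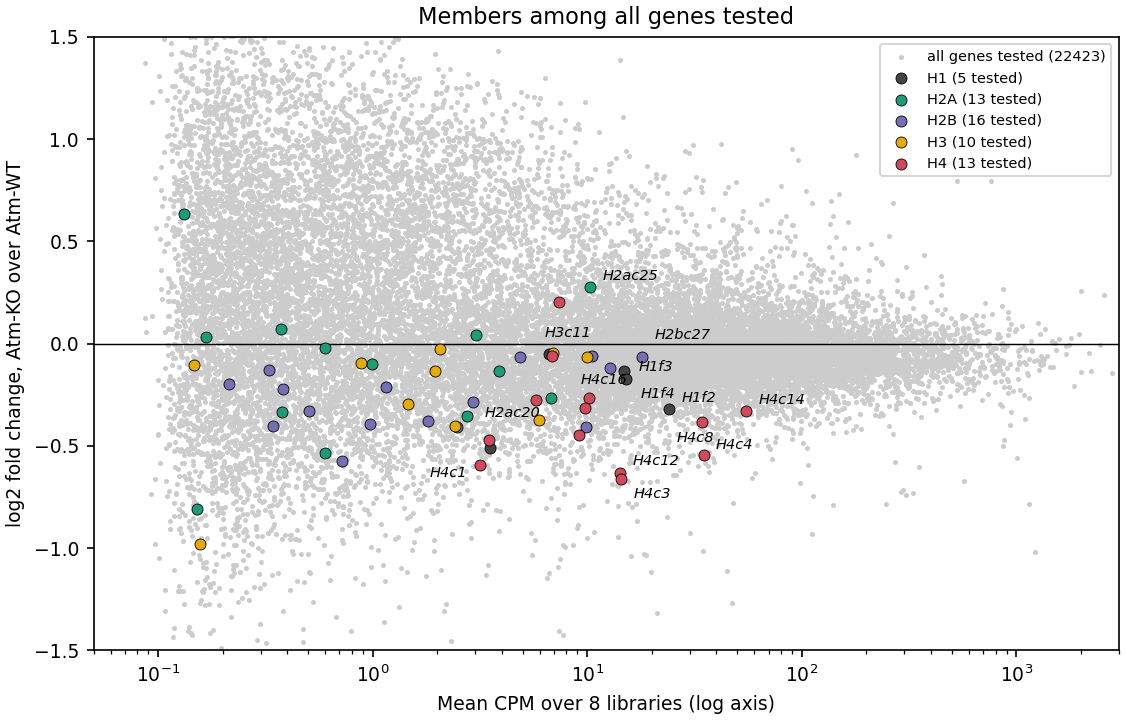
log2 fold change of *Atm*-KO over *Atm*-WT (vertical axis, with the most extreme grey points beyond its range) against mean CPM over 8 libraries (horizontal log axis) for all genes tested in grey and the 57 histone genes coloured by class. Most histone genes lie below 0, and at a mean over 10 CPM the lowest of them are *H4c3*, *H4c12* and *H4c4*.

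Within H4, 12 of 13 genes had a negative log2 fold change, as had 53.1% of all genes tested. At an unadjusted p under 0.05, 8 were lower (61.5%, against a background of 8.48%), and the H4 median was −0.38. *H4c14* (chr3:96168998-96170627), which had the highest CPM of all members, was at 61.8, 65.1, 61.1 and 56.2 CPM in *Atm*-WT libraries 2M, 7M, 13M and 32M and at 48.2, 41.4, 49.1 and 55.8 CPM in *Atm*-KO libraries 1M, 7F, 11M and 12M. All *Atm*-KO libraries were below all *Atm*-WT libraries, and the log2 fold change was −0.33 (SE 0.09, adjusted p = 0.109 by edgeR). None of its 100-base windows recurs exactly elsewhere in the genome, and its model overlaps no other gene.

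*H4c12* (chr13:21934364-21934675) had the smallest p among the members. Its levels were 19.5, 15.5, 14.01 and 20.1 CPM in *Atm*-WT and 9.67, 14.2, 10.3 and 10.4 CPM in *Atm*-KO libraries, in the same order of libraries as above. Library 7F stood above 13M, and the 3 other *Atm*-KO libraries were below every *Atm*-WT library. The log2 fold change was −0.63 (SE 0.15, adjusted p = 0.0942 by edgeR), and over the alternatives the adjusted p ranged from 0.00367 (DESeq2) to 0.375. Of its 100-base windows, 64.3% recur elsewhere in the genome, so its count depends on how reads with several matches were treated.

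*H4c3* (chr13:23881618-23882437) and *H4c4* (chr13:23765581-23766718) lie in the second stretch of chromosome 13. *H4c3* was at 20.3, 16.97, 12.6 and 20.3 CPM in *Atm*-WT and 10.1, 15.6, 10.5 and 8.01 CPM in *Atm*-KO libraries, with a log2 fold change of −0.66 (SE 0.20, adjusted p = 0.125 by edgeR). *H4c4* was at 44.4, 39.8, 30.0 and 51.2 CPM in *Atm*-WT and 26.2, 39.3, 26.0 and 21.8 CPM in *Atm*-KO libraries, with a log2 fold change of −0.54 (SE 0.19, adjusted p = 0.151). In both genes 7F was above 13M and the genotypes otherwise separated. Over the alternatives the log2 fold change ranged from −0.86 to −0.35 for *H4c3* and from −0.73 to −0.23 for *H4c4*. The model of *H4c4* overlaps that of *H2bc6* on the opposite strand, and strand use in counting is not stated.

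*H4c8*, *H4c1* and *H4c16* completed the H4 genes with the smallest p. *H4c8* (chr13:23715220-23715689) was at 43.1, 41.7, 32.3 and 37.9 CPM in *Atm*-WT and 26.3, 39.4, 29.3 and 23.9 CPM in *Atm*-KO libraries (log2 fold change −0.38, SE 0.14, adjusted p = 0.179 by edgeR). *H4c1* (chr13:23944666-23945650) was at 3.89, 3.67, 3.31 and 4.34 CPM in *Atm*-WT and 1.98, 3.07, 2.48 and 2.56 CPM in *Atm*-KO libraries (log2 fold change −0.59, SE 0.18, adjusted p = 0.123). *H4c16* was at 10.9, 11.3, 10.9 and 11.4 CPM in *Atm*-WT and 8.84, 10.2, 8.51 and 9.30 CPM in *Atm*-KO libraries (log2 fold change −0.27, SE 0.10, adjusted p = 0.171). In *H4c1* and *H4c16* the genotypes did not overlap, and in *H4c8* library 7F lay within the *Atm*-WT range.

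*H4c6*, named after its values were seen, was the eighth H4 gene at an unadjusted p under 0.05 (10.5 ± 2.72 against 7.71 ± 1.06 CPM, log2 fold change −0.45, adjusted p = 0.191 by edgeR). The remaining 5 did not pass. *H4c11* was at −0.47, *H4c9* at −0.32 and *H4c2* at −0.28 on the log2 scale. *H4c17* (−0.06) and *H4c18* (0.21) are near copies of each other, sharing 88.1% and 89.1% of their windows with other places in the genome, and their promoters hold the GGTCCG shown above. *H4c18* was the H4 gene with a positive log2 fold change, and together they summed to 13.8 ± 4.24 CPM in the wild type and 14.6 ± 2.37 CPM in the knockout. Among the 7 H4 genes with under 20% of windows shared, all were lower and 5 passed at an unadjusted p (median −0.45). Among the 6 with more, 5 were lower and 3 passed (median −0.33).

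Another RNA with no poly(A) tail, *Rn7sk*, the small nuclear RNA that holds the elongation factor P-TEFb inactive, was lower at an unadjusted p as well. It was at 2530, 1555, 1126 and 1343 CPM in *Atm*-WT and 723, 1077, 716 and 721 CPM in *Atm*-KO libraries, with a log2 fold change of −1.02 (SE 0.23, adjusted p = 0.0931 by edgeR). Every *Atm*-KO library was below every *Atm*-WT library, and, as for summed H4, 7F was the highest of the *Atm*-KO libraries. Among *Atm*-WT libraries the order differed, with *Rn7sk* highest in 2M and summed H4 highest in 32M. Of the 15 RNAs without a poly(A) tail listed for this purpose, 6 were tested, 5 were lower, 2 passed at an unadjusted p (33.3%, against 8.48% of all genes tested) and 5 of the 15 had 0 counts in every library. The median was −0.21, with *Rn7s2* at −0.73 and *Rn7s1* at 0.25. The part of a difference in how such RNAs were recovered in the histone values was not tested.

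Linker histones bind the DNA between nucleosomes. All 5 H1 genes had a negative log2 fold change and 2 were lower at an unadjusted p (40%, against 8.48% of all genes tested). *H1f2* (chr13:23922791-23924350) was at 29.1, 24.6, 23.6 and 29.8 CPM in *Atm*-WT and 18.9, 22.3, 24.1 and 20.6 CPM in *Atm*-KO libraries. Only 11M exceeded an *Atm*-WT library, and the log2 fold change was −0.32 (SE 0.10, adjusted p = 0.141 by edgeR). *H1f1*, named after its values were seen, was at 4.13 ± 0.858 and 2.90 ± 0.495 CPM (log2 fold change −0.51, adjusted p = 0.184). *H1f3* and *H1f4* did not pass. *H1f3* was at 17.2, 12.7, 13.96 and 17.97 CPM in *Atm*-WT and 12.001, 18.2, 14.2 and 11.98 CPM in *Atm*-KO libraries (log2 fold change −0.13, SE 0.16). *H1f4* was at 18.6, 13.3, 11.6 and 21.1 CPM against 10.5, 20.1, 13.3 and 13.3 CPM (log2 fold change −0.18, SE 0.22). In both, 7F was the highest *Atm*-KO library and lay within or above the upper part of the *Atm*-WT range. Without 7F the log2 fold change was −0.26 for *H1f3* and −0.37 for *H1f4*, and without *Atm*-WT 32M it was −0.05 and −0.02. *H1f5* was at −0.05 on the log2 scale.

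H2A and H2B form dimers that join the H3-H4 tetramer to complete the nucleosome core, and many of their genes stand head to head. There were 15 such neighbouring pairs of histone genes, 175 to 659 bases apart where their models did not overlap. In the pair *H2ac20* and *H2bc21* on chromosome 3, which share 238 bases between their starts, the level was 13.02 and 4.86 CPM per kb and the log2 fold change −0.27 and −0.12. None of the 13 H2A genes tested was lower at an unadjusted p, against a background of 8.48%. Of these 13, 8 had a negative log2 fold change, and their median was −0.10. *H2ac20* (chr3:96127677-96128196) was at 7.35, 7.41, 6.69 and 8.12 CPM in *Atm*-WT and 5.03, 6.12, 6.81 and 6.63 CPM in *Atm*-KO libraries (log2 fold change −0.27, SE 0.13, adjusted p = 0.283 by edgeR). The genotypes overlapped through 11M alone.

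*H2ac25* (chr11:58845511-58847656) was the member that was higher in *Atm*-KO mice at an unadjusted p. It was at 8.70, 9.38, 8.32 and 10.95 CPM in *Atm*-WT and 11.9, 10.4, 10.3 and 12.7 CPM in *Atm*-KO libraries, with 32M inside the *Atm*-KO range (log2 fold change 0.28, SE 0.12, adjusted p = 0.229 by edgeR). It did not pass without *Atm*-WT 2M, 7M or 13M, without *Atm*-KO 1M or 12M, or with a surrogate variable as covariate. Its model overlaps *Trim17* on the same strand, so reads of the 2 genes cannot be told apart there. Its neighbours *H2bc27* and *H2bc26* were both at −0.07 on the log2 scale.

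All 16 H2B genes tested had a negative log2 fold change, with a median of −0.25. At an unadjusted p 1 was lower (6.25%), which is near the background of 8.48%. This was *H2bc4*, named after its values were seen, at 11.3 ± 1.76 against 8.48 ± 1.64 CPM (log2 fold change −0.41, adjusted p = 0.189 by edgeR), whose model overlaps *H2ac6* on the opposite strand. *H2bc27* (chr11:58838848-58840361), the H2B gene with the highest level per kilobase, was at 18.7, 16.8, 17.9 and 20.4 CPM in *Atm*-WT and 16.3, 17.7, 17.6 and 18.9 CPM in *Atm*-KO libraries, which overlapped (log2 fold change −0.07, SE 0.09, adjusted p = 0.706).

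H3 genes encode the histone whose tail carries many of the marks of active and silent chromatin. All 10 tested had a negative log2 fold change and none was lower at an unadjusted p, against a background of 8.48% (median −0.12). *H3c11* (chr13:21967130-21967540) was at 5.65, 9.73, 5.36 and 7.39 CPM in *Atm*-WT and 6.76, 7.75, 6.43 and 6.25 CPM in *Atm*-KO libraries, with an *Atm*-WT spread that held all *Atm*-KO values (log2 fold change −0.05, SE 0.18, adjusted p = 0.910 by edgeR).

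**Figure D3:**
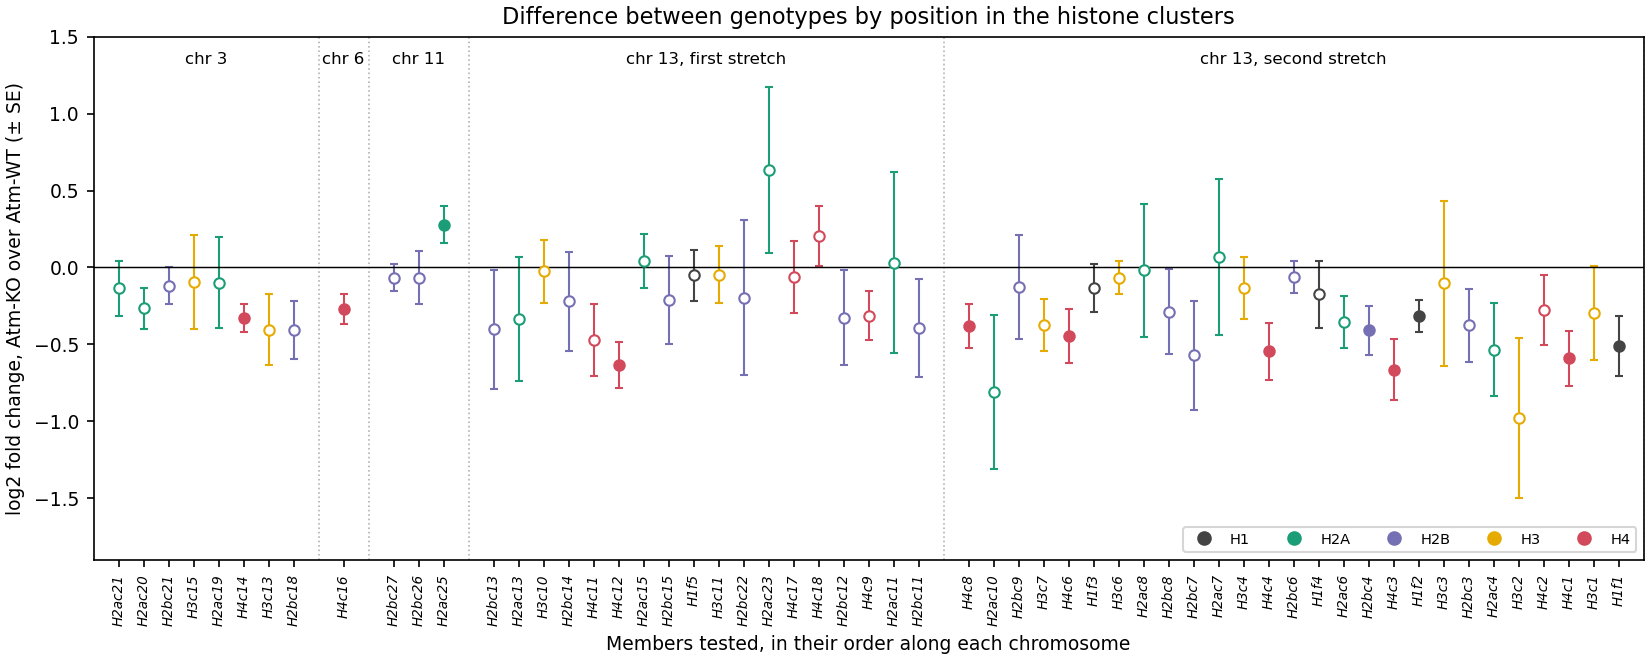
log2 fold change of *Atm*-KO over *Atm*-WT with its standard error (vertical axis) for the 57 histone genes tested, in their order along each chromosome and coloured by class, with filled points for an unadjusted p under 0.05. Of 27 genes tested in the second stretch of chromosome 13, 26 lie below 0 and 8 are filled, while 1 of the 18 in the first stretch is filled.

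By position, the 27 genes tested in the second stretch of chromosome 13 had −0.35 as their median log2 fold change, with 26 below 0 and 8 lower at an unadjusted p. The H4 genes *H4c1*, *H4c3*, *H4c4*, *H4c6* and *H4c8* were among these 8, and position was not separated from class. The 18 in the first stretch had a median of −0.20, with 14 below 0 and 1 lower at an unadjusted p. The 8 on chromosome 3 were all below 0 (median −0.20), with 1 lower at an unadjusted p. On chromosome 11, 2 of 3 were below 0. The share of all genes tested that were lower at an unadjusted p was 8.48%, so the counts of 1 in the first stretch and on chromosome 3 were near the background, and the difference between the stretches was not tested. Genes with under 20% of their windows shared had a median of −0.27 (25 of 27 below 0), and those with more had −0.28 (26 of 30 below 0).

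The members of a library tended to lie high or low together within genotypes as well. Among *Atm*-WT libraries, 32M was the highest for 30 and 13M the lowest for 38 of the 57 genes. Among *Atm*-KO libraries, 7F was the highest for 36 of 57 and for 11 of 13 H4 genes. Relative to the *Atm*-WT mean, the median member was at 0.02 on the log2 scale in 7F, and at −0.35, −0.26 and −0.33 in 1M, 11M and 12M. It was at −0.25 in 13M, an *Atm*-WT library. *H4c14* went the other way, with 7F as its lowest *Atm*-KO library. Without 7F, 17 genes were lower at an unadjusted p (29.8%, background 7.81%) and 54 of 57 were below 0. Without 13M, 18 were lower (31.6%, background 7.26%), and without *Atm*-WT 2M, 7 (12.3%, background 6.68%). With a surrogate variable as covariate, 3 were lower (5.26%), which is near the background of 4.35%, 41 of 57 were below 0 and the median was −0.14.

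**Figure D4:**
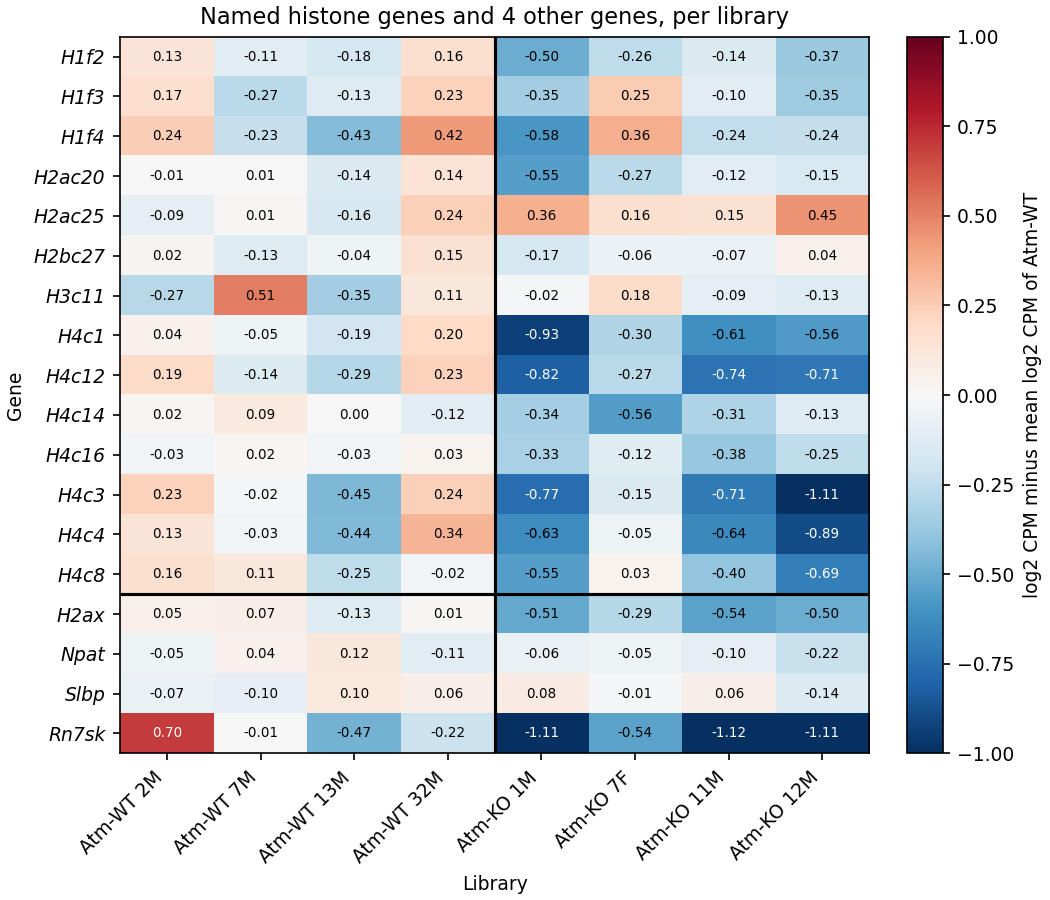
log2 CPM minus the mean log2 CPM of the *Atm*-WT libraries (colour, saturated beyond −1 and 1, and printed in each cell) for the 14 named histone genes and 4 other genes in each of 8 libraries. Column 7F is paler than the other *Atm*-KO columns for most H4 genes and for *Rn7sk*, and *H4c14* is darkest there.

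The genes around histone supply were taken from fixed lists. *Npat* lies on chromosome 9 directly beside *Atm*, with 10 bases between their models on opposite strands (*Atm* chr9:53348097-53448236, *Npat* chr9:53448247-53486866). *Npat* was at 58.9, 62.8, 66.1 and 56.6 CPM in *Atm*-WT and 58.3, 58.8, 57.0 and 52.3 CPM in *Atm*-KO libraries, which overlapped (log2 fold change −0.11, SE 0.07, adjusted p = 0.394 by edgeR). Without *Atm*-WT 13M it was at −0.05 and without *Atm*-WT 32M at −0.15. *Slbp*, whose product binds the stem-loop, was at 23.5 ± 1.605 against 23.5 ± 1.56 CPM. Of the 13 genes for 3′ end processing and transcription, 1 was lower at an unadjusted p, *Casp8ap2* (51.4 ± 2.50 against 46.0 ± 2.33 CPM, log2 fold change −0.16, adjusted p = 0.205), which encodes the NPAT partner FLASH, and *Srrt*, a partner of the cap-binding complex, was at 0.18 (median −0.06). The count of 1 was near the background of 8.48%. None of the 8 genes for histone RNA decay and translation passed (median 0.03), with the kinase gene *Smg1* at 0.27 (0.14 without *Atm*-WT 32M and 0.050 with the surrogate variable) and the exonuclease gene *Eri1* at −0.11.

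Of the 11 genes listed as replication-independent histones, 3 were lower at an unadjusted p (27.3%, against 8.48% of all genes tested). These 3 did not overlap between genotypes (against 5.12% of all), and the median of the list was −0.10. *H2ax*, whose product is phosphorylated by ATM at DNA breaks, was at 13.4, 13.5, 11.8 and 13.1 CPM in *Atm*-WT and 9.09, 10.6, 8.92 and 9.18 CPM in *Atm*-KO libraries (log2 fold change −0.46, SE 0.10, adjusted p = 0.0931 by edgeR). *H2az1* was at 63.5 ± 5.93 and 56.1 ± 1.57 CPM and *Macroh2a2* at 19.3 ± 0.746 and 16.9 ± 0.929 CPM. *Cenpa*, the centromeric H3, was at 0.742 ± 0.194 and 0.952 ± 0.308 CPM, and *H3f3b*, a gene of H3.3, at 333 ± 35.6 and 330 ± 39.7 CPM. Of 14 histone chaperones, 1 was lower at an unadjusted p, which is near the background (*Rbbp7*, log2 fold change −0.13, adjusted p = 0.237 by edgeR). *Cabin1* was at 0.19, and the median was 0.02.

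Of 20 genes of S phase and dividing cells, 2 were lower at an unadjusted p, both subunits of the replicative helicase (*Mcm4* at −0.19 and *Mcm6* at −0.25), 1 was higher and the median was −0.03. These counts were near the background of 8.48% for lower genes and under that of 11.7% for higher genes. The higher gene was *Tyms*, thymidylate synthase, at 2.90, 2.77, 2.90 and 2.33 CPM in *Atm*-WT and 4.52, 3.43, 3.13 and 4.20 CPM in *Atm*-KO libraries (log2 fold change 0.49, SE 0.17, adjusted p = 0.158 by edgeR). *Mki67*, the defining marker of dividing cells, was at 0.365 ± 0.148 and 0.493 ± 0.286 CPM.

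Markers of other cells were also measured, since in bulk tissue fewer cells of a type and less RNA per cell cannot be told apart. Their counts stand beside the 8.48% of all genes tested that were lower at an unadjusted p. All 7 oligodendrocyte markers were lower, 3 at an unadjusted p (median −0.18), and they summed to between 3276 and 4304 CPM in *Atm*-WT and between 1981 and 3384 CPM in *Atm*-KO libraries. Without *Atm*-KO 12M their median was −0.049. All 6 microglia markers were lower, 3 at an unadjusted p (median −0.30), from between 123 and 159 to between 96.0 and 127 CPM, with a median of −0.14 without *Atm*-KO 12M. All 6 markers of astrocytes and Bergmann glia were lower, 3 at an unadjusted p (median −0.19), from between 2308 and 2500 to between 2109 and 2306 CPM. All 5 choroid plexus markers were lower, 2 at an unadjusted p (median −0.60), from between 764 and 1527 to between 414 and 1190 CPM. All 5 markers of oligodendrocyte precursors had a lower level and none passed (median −0.17, or −0.087 without *Atm*-KO 12M and −0.28 without 7F, between 81.4 and 86.4 against between 58.8 and 87.7 CPM).

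Of 7 Purkinje cell markers, 1 was lower at an unadjusted p (median −0.11, between 7877 and 9764 against between 7754 and 9330 CPM), and none of 8 granule cell markers passed (median 0.05, between 5769 and 6885 against between 6025 and 8147 CPM). Endothelial markers were lower at an unadjusted p for 2 of 6 (median −0.05, between 178 and 211 against between 148 and 202 CPM) and meningeal fibroblast markers for 1 of 5 (median −0.03, between 83.3 and 110 against between 73.2 and 98.3 CPM). None of 5 red blood cell markers passed (median 0.61, or 0.11 without *Atm*-KO 7F and 1.41 without *Atm*-WT 13M, between 5.87 and 42.9 against between 7.80 and 49.5 CPM). The part of these cell types in the histone values was not tested.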

How the data were processed

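Cerebellar RNA of 4 *Atm*-WT and 4 *Atm*-KO mice was sequenced through Novogene. The authors checked reads with FastQC 0.11.9, aligned them with STAR to GRCm39 (GENCODE Release 28 in their wording), counted them with featureCounts and deposited raw counts per gene without normalization. Strand, pair and multi-mapping settings are not given in the sources used here. Between 67.3% and 73.3% of counts from 1 to 50 were even. The reads of a pair may therefore have been counted separately, and independent depth may be lower than the counts.

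Identifiers were matched to GENCODE vM39 (56017 of 56691, 98.8%). Genes were filtered by filterByExpr, scaled by TMM and compared with glmQLFit and glmQLFTest of edgeR 4.0.16 (R 4.3.3), adjusted by Benjamini-Hochberg over 22423 genes. Depth was between 65967130 and 88030300 counts per library. DESeq2 1.42.0, limma 3.58.1 and sva 3.50.0 gave alternatives, and blastn 2.17.0 the windows of 100 bases found elsewhere.

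Named members were the 8 with the highest mean CPM, up to 8 with the smallest unadjusted p under 0.05 in each direction, and the highest per kilobase in each class. Outside the members they were *Atm*, *Npat*, *Slbp* and the smallest p per list and direction; other genes were named after their values were seen. Members and lists were chosen with earlier results of these data known.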

Additional observations from a re-analysis of the deposited data

Results flagged for a closer look

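Among 68 groups of 4 libraries examined for a library standing apart by Dixon's test, 5 held one, where chance gives 3.4. *Atm*-KO library 7F stood apart in 4 of them, each time above the other *Atm*-KO libraries. *H4c12* was at 14.2 CPM in 7F and between 9.67 and 10.4 CPM in the others. The summed CPM of H4 genes was 212 in 7F and between 166 and 173 in the others. *H2ax* was at 10.6 CPM in 7F against between 8.92 and 9.18 CPM, and *Rn7sk* at 1077 CPM against between 716 and 723 CPM. Library 7F was the library with the letter F, and whether sex has a part in these values was not tested. *Smg1* was at 1096 CPM in *Atm*-KO library 12M and between 878 and 907 CPM in the others.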

How the results depend on the processing

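Of 250 values under an alternative for the main results, 222 stayed within the limits set for them and 28 did not. The number of genes lower at an unadjusted p under 0.05, 11, became 3 (5.26% of those tested, against 4.35% of all genes) with a surrogate variable as covariate. With a library left out it ranged from 7 (12.3% against 6.68%, without *Atm*-WT 2M) to 18 (31.6% against 7.26%, without *Atm*-WT 13M), with 17 (29.8% against 7.81%) without *Atm*-KO 7F. The number higher, 1, became 0 with the surrogate variable and ranged from 0 to 1 with a library left out. At an adjusted p under 0.05, none became 5 with DESeq2 and 2 with no filter on low counts, in which case 591 of all genes were called in place of 4. DESeq2 called 1603 of all genes. Over all alternatives the median of members ranged from −0.33 (without 7F) to −0.14 (surrogate variable). The summed H4 ratio on the log2 scale was taken from CPM and so not under the surrogate variable. Over the settings that apply to it, it ranged from −0.46 (without 7F) to −0.35 (library size alone).

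With library size alone, the median log2 fold change was −0.017 for processing and transcription, 0.073 for chaperones, −0.14 for astrocyte markers and 0.031 over all genes. With a library left out, it ranged from −0.074 to −0.025 for processing and transcription, from −0.043 to 0.076 for chaperones (−0.018 without *Atm*-KO 1M and −0.043 without *Atm*-KO 12M), from −0.50 (without 7F) to −0.14 for RNAs without a poly(A) tail, from −0.030 (without *Atm*-KO 12M) to 0.11 for granule cells, from −0.28 to −0.087 for oligodendrocyte precursors and from −0.24 to −0.13 for astrocytes. It ranged from −0.29 to −0.049 for oligodendrocytes, from −0.37 to −0.14 for microglia, from −0.75 to −0.40 for choroid plexus, from −0.16 to −0.064 for Purkinje cells, from −0.15 to 0.0060 for endothelial cells, from −0.11 to 0.026 for meningeal fibroblasts and from 0.11 to 1.41 for red blood cells. It ranged from −0.16 to −0.071 for replication-independent histones, from −0.0049 to 0.082 for decay and from −0.061 to 0.029 for S phase.

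With the surrogate variable *H1f3* was at 0.097, *H1f4* at 0.098 and *H3c11* at 0.032. *H3c11* was at 0.0015 with library size alone and at 0.14 without *Atm*-WT 7M. *Slbp*, at −0.0011 as reported, was at 0.0032 with DESeq2 and with RLE factors, 0.047 with library size alone, 0.024 with at least 10 counts in every library, 0.064 with the surrogate variable, 0.023 with halved counts and 0.042 among protein-coding genes only (chosen after seeing the data), and between −0.039 and 0.050 with a library left out. The cause of these changes was not tested. No paired analysis was possible because the labels of the genotypes share only the number 7, and nothing says that it pairs mice. Genes with many windows shared with copies, and genes under 1 CPM, are limited by how reads were placed and by depth.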
